A study of Mus musculus with 2 samples.

Results

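The genes described here are 7 members of the synuclein family and of the group linked to inherited Parkinson disease: Sncb, Sncg, Uchl1, Park7, Pink1, Lrrk2 and Vps35. They were taken by symbol from the annotation of the deposited tables and were not chosen for their values, and all 7 of the 55536 annotated genes were found, with 33 annotated transcripts. The tissue was left cerebral cortex taken at 2 months from male mice of the strain B6CASTF1/J, a hybrid with 1 C57BL/6J and 1 CAST/EiJ parent, and the labels name no treatment or engineered allele. The single group holds 2 libraries, replicate 1 and replicate 2, which the labels give as biological replicates from males with different numbers, under a shared donor record. Each library was made from 300 ng of total RNA with ribosomal RNA reduced and synthetic ERCC spike-ins added. The design therefore implies no comparison between conditions, and the question is how strongly each gene and each of its transcript forms was represented in this tissue and how far the animals differed.

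The libraries held 33007629 expected counts in replicate 1 and 32142918 in replicate 2, where an expected count is an estimated number of reads that need not be whole. Each library was quantified by the authors from an alignment to the transcriptome, here called alignment-based, and once more directly from a file of reads, here called read-based. Levels are alignment-based TPM unless stated, that is, transcript abundance corrected for length and scaled to a sum of 1000000, and errors are the SD over the 2 libraries. Markers of cortical excitatory neurons were present in full, 6 of 6 reaching 1 TPM in each library, with sums of 1845 TPM in replicate 1 and 1924 TPM in replicate 2. Markers of midbrain dopaminergic neurons, the cells best known for their loss in Parkinson disease, reached that level for only 2 of 9, Ddc and Aldh1a1. By alignment Foxa2 and Lmx1a had 0 counts in each library. For 0 counts the upper limit from counting error alone is 0.0913 CPM (counts scaled to a sum of 1000000) in replicate 1. In replicate 2 it is 0.0937 CPM. By reads Foxa2 was also at 0, while Lmx1a was listed at 0.0235 TPM in replicate 1 and 0.0739 TPM in replicate 2. The dopamine transporter gene Slc6a3 had 5 counts in replicate 1 and 2 in replicate 2. Markers of striatal projection neurons reached 1 TPM in each library for 10 of 10, with sums of 407 TPM in replicate 1 and 241 TPM in replicate 2. The values below are those of bulk tissue labelled as cortex, and any part from neighbouring regions was not tested.

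Synucleins are small presynaptic proteins that bind synaptic vesicle membranes and work beside the release machinery. The other genes act on protein and organelle turnover. Uchl1 encodes a neuronal enzyme that frees ubiquitin, Park7 encodes the redox-sensitive protein DJ-1, and Pink1 encodes a kinase that gathers on damaged mitochondria and marks them for removal. Lrrk2 encodes a large kinase that phosphorylates Rab GTPases, the switches of vesicle traffic, and Vps35 encodes the core of retromer, which returns cargo from endosomes.

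The 7 genes spanned a wide range of levels, from 407 ± 20.6 TPM for Uchl1 to 1.85 ± 0.148 TPM for Sncg. Together they held 0.104% of the counts of all genes in replicate 1 and 0.0985% in replicate 2. Uchl1 (421 TPM in replicate 1, 392 TPM in replicate 2) and Sncb (411 and 389 TPM) were the highest pair, at ranks 87 and 89 of 22028 protein-coding genes. Pink1 (147 and 138 TPM) and Park7 (91.2 and 83.8 TPM) followed at ranks 556 and 1128. Vps35 (59.2 and 57.4 TPM) was at rank 1885 and Lrrk2 (28.0 and 23.3 TPM) at rank 4522. Sncg (1.95 and 1.74 TPM) was at rank 12243, in the lower part of the list. The libraries of Uchl1 and Sncb overlapped, so these neighbours did not differ beyond their spread. All other neighbours in the order were apart in both libraries.

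**Figure D1:**
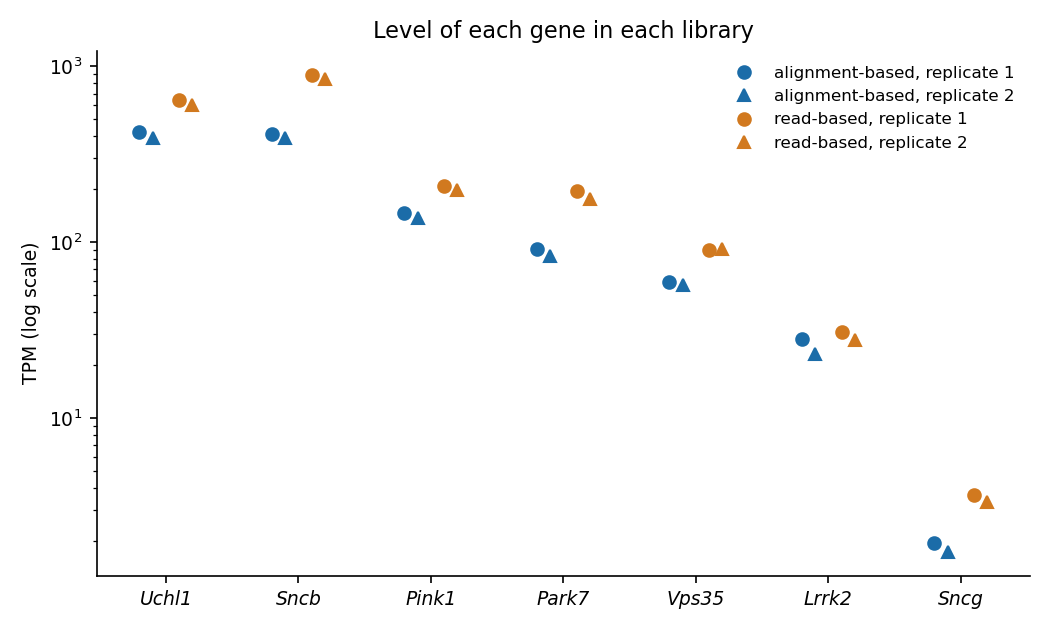
TPM on a log scale of each gene, with circles for replicate 1, triangles for replicate 2, blue for the alignment-based and orange for the read-based quantification. Uchl1 and Sncb lie close together at the top in blue, Sncb lies above Uchl1 in orange, and Sncg lies far below the other 6 genes in both colours.

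The read-based quantification gave higher TPM for all 7 genes, and by unequal amounts. The median ratio of alignment-based over read-based TPM was 0.639 over 13084 protein-coding genes. Sncb (0.460 ± 0.00244), Park7 (0.470 ± 0.00360) and Sncg (0.527 ± 0.00414) lay below that median. Vps35 (0.638 ± 0.0200) and Uchl1 (0.653 ± 0.00133) were close to it, and Pink1 (0.702 ± 0.00848) and Lrrk2 (0.871 ± 0.0503) lay above it. The order of the top pair turned in consequence. Sncb stood at 897 read-based TPM in replicate 1 and 843 in replicate 2, above Uchl1 at 645 and 602. Uchl1 over Sncb was 1.02 ± 0.0127 by alignment and 0.716 ± 0.00372 by reads, so their order depended on the quantification.

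Sncb (ENSMUSG00000034891.13, chromosome 13, 54758860 to 54766595, minus strand, build mm10) encodes beta-synuclein, a presynaptic protein abundant in forebrain. It had 9561 counts in replicate 1 and 8908 in replicate 2, a mean level of 400.0 ± 15.2 TPM. The protein-coding form Sncb-201 led in both quantifications. Its share of the gene's TPM was 78.0 ± 0.348% by alignment and 50.3 ± 2.45% by reads. Most of the rest was Sncb-204, a noncoding form annotated as a retained intron. Sncb-204 stood at 77.7 TPM in replicate 1 and 67.7 in replicate 2 by alignment, a share of 18.2 ± 1.08%. By reads it was at 425 and 383 TPM, a share of 46.4 ± 1.40%. Both libraries thus gave Sncb-204 a larger share by reads than by alignment.

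Sncb-204 is short, with 469 bases in 4 exons against 1351 bases in 6 exons for Sncb-201. TPM counts transcripts per length, and its part of the gene's counts was smaller than its part of the TPM, at 6.28 ± 0.381% by alignment and 11.7 ± 0.517% by reads. It begins 3528 bases into the gene, inside the intron before exon 3, and all 3 of its splice junctions are also in Sncb-201. Its 107 bases of intron are found in no other annotated transcript of the gene. It also lacks 989 bases of Sncb-201, so the forms differ in more than this intron piece. The 107 intron bases are printed in lower case below, beside the spliced junction that replaces them. Capitals mark the first bases of exon 3 (chr13:54762922-54762960), which both forms share.
Sncb-201, exon 2 joined to exon 3: gcgtcctctatgtcgGAAGCAAGACCAGTG
Sncb-204, start: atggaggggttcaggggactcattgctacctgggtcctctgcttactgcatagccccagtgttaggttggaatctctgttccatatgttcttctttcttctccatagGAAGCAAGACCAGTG
The intron piece ends in AG, the usual last bases of an intron. The other forms, protein-coding Sncb-202 and noncoding Sncb-203, each held less than 5% of the gene's TPM in each library of both quantifications.

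Sncg (ENSMUSG00000023064.4, chromosome 14, 34370274 to 34374789, minus strand) encodes gamma-synuclein, known from peripheral neurons and from a class of cholecystokinin interneurons in cortex. It was measured with 32 counts in replicate 1 (exact Poisson 95% interval 21.9 to 45.2) and 28 in replicate 2 (18.6 to 40.5). Its 1 annotated transcript stood at 1.95 TPM in replicate 1 and 1.74 TPM in replicate 2. By reads the levels were 3.68 and 3.32 TPM. Sncb exceeded Sncg 217 ± 9.22-fold by alignment and 249 ± 7.29-fold by reads, within each library. The markers listed for the Sncg class of interneurons all reached 1 TPM in each library, 7 of 7 with Sncg counted. They included the peptide gene Cck at 340.0 ± 3.43 TPM, the cannabinoid receptor gene Cnr1 at 57.9 ± 5.71 and the serotonin receptor gene Htr3a at 2.82 ± 0.0495. In bulk tissue a gene used by few cells and a gene used weakly by many cannot be told apart. Reaching 1 TPM therefore does not show that the transcripts of a listed marker came from this class.

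The vesicle proteins that synucleins work beside were abundant. All 15 listed partners reached 1 TPM in each library, with a median of 336 TPM in replicate 1 and 315 TPM in replicate 2. The fusion protein gene Snap25 was highest at 1441 ± 9.23 TPM, followed by the chaperone gene Hspa8 at 1094 ± 96.9 and the vesicle protein gene Syp at 856 ± 43.6. Sncb thus lay above the median of its partners, and Sncg lay below the lowest of them, Syn3, at 13.9 ± 0.410 TPM.

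Uchl1 (ENSMUSG00000029223.12, chromosome 5, 66676091 to 66687234, plus strand) had 8432 counts in replicate 1 and 7696 in replicate 2. By alignment the noncoding form Uchl1-202, annotated as a retained intron, led at 300.3 TPM in replicate 1 and 261 TPM in replicate 2, a share of 69.0 ± 3.26%. The protein-coding form Uchl1-201 stood at 110.3 TPM in replicate 1 and 116 TPM in replicate 2, a share of 27.9 ± 2.42%. By reads Uchl1-201 stood at 633 and 588 TPM, a share of 97.9 ± 0.306%, and Uchl1-202 was listed at 0 in both libraries. The leading form of Uchl1 therefore depended on the quantification, while the libraries were close to each other within each one.

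The forms differ little in sequence. Uchl1-202 has 980 bases in 7 exons, of which 928 are shared with Uchl1-201, or 94.7%. It lacks 249 bases of Uchl1-201, mainly exons 1 and 2, and has 52 bases of its own at its start. All 6 of its splice junctions are also junctions of Uchl1-201. The 52 own bases are intron and are printed in lower case below. In the spliced form the lower-case bases are the 12 bases of exon 2 and the end of exon 1. Capitals mark the start of exon 3 (chr5:66676944-66677072), shared by both.
Uchl1-201, exon 2 joined to exon 3: gagatgctgaacaaaGTGTTGGCCAAGCTG
Uchl1-202, start: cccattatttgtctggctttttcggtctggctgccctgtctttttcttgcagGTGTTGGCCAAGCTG
A further difference lies at the gene's start. Uchl1os, an antisense gene studied in mouse for its effect on translation of Uchl1 mRNA, overlaps 295 exonic bases there. Of the 31-base words of Uchl1-201, 17.6% also occur in Uchl1os, read without regard to strand, while 0 of those of Uchl1-202 do. Uchl1os itself had 3 counts in each library by alignment. Whether counting used the strand is not given in the sources used here, and the part of this overlap in the split of reads was not tested.

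**Figure D2:**
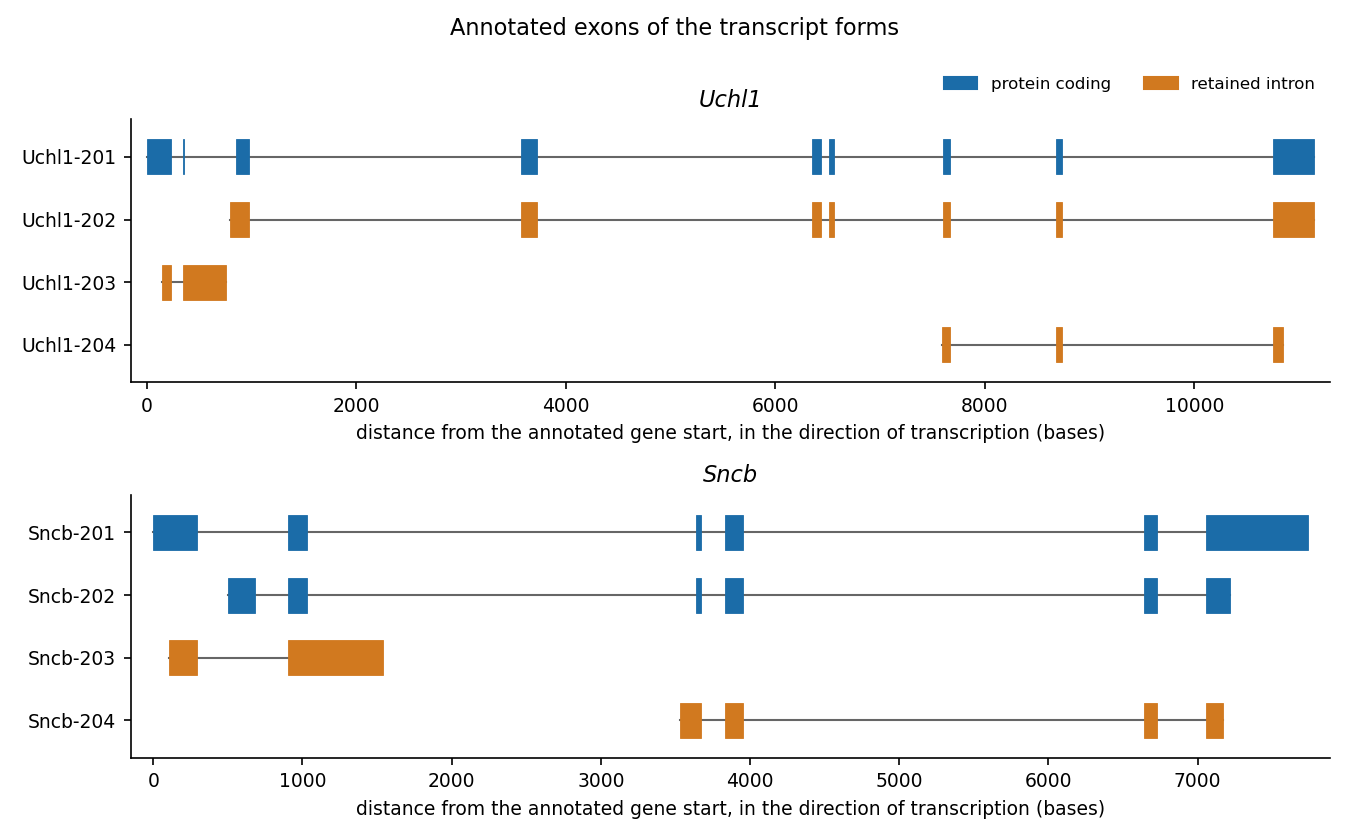
Annotated exons (boxes) and introns (lines) of the Uchl1 and Sncb transcripts, in bases from the annotated gene start in the direction of transcription, blue for protein-coding and orange for retained-intron forms. Boxes keep a thin outline so that the 12-base exon 2 of Uchl1-201 can be seen. Uchl1-202 begins 801 bases and Sncb-204 begins 3528 bases into the gene, each just before an exon that the coding form shares.

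Within its family and process Uchl1 stood high. It exceeded Uchl3, the related hydrolase found in most tissues, 23.4 ± 0.294-fold by alignment and 24.5 ± 1.37-fold by reads. Of 12 listed ubiquitin hydrolases and ubiquitin supply genes, 11 reached 1 TPM in each library. The polyubiquitin gene Ubb lay above Uchl1 in both quantifications, at 764 ± 78.6 TPM by alignment and 1435 TPM by reads.

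Park7 (ENSMUSG00000028964.14, chromosome 4, 150897133 to 150914437, minus strand) had 1567 counts in replicate 1 and 1399 in replicate 2. Its mean was 87.5 ± 5.26 TPM by alignment and 186 ± 12.6 TPM by reads. The gene has 10 annotated transcripts, 8 of them protein coding, and protein-coding forms held 97.2 ± 0.110% of its TPM. Park7-201 led with 70.2 ± 0.592% by alignment and 60.7 ± 1.58% by reads. The forms differ in the first exon and in length, and the smaller shares were not steady between quantifications. Park7-204, which starts at the most upstream annotated site, held 24.4% in replicate 1 and 23.0% in replicate 2 by alignment. By reads it held 12.9% in replicate 1 and 0.0280% in replicate 2.

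Beside a smaller share of Park7-204, the read-based tables listed other first exons. Park7-209 held 0 in replicate 1 and 0.322% in replicate 2 by alignment, against 15.1% and 4.12% by reads. Park7-206 held 0.263% in replicate 1 and 0.501% in replicate 2 by alignment, against 7.45% and 13.7% by reads. Park7-202 held 1.32% and 1.25% by alignment, against 0 in replicate 1 and 7.51% in replicate 2 by reads. Park7-203 was listed at 0 TPM in both libraries by alignment, against 0 in replicate 1 and 9.38% in replicate 2 by reads. By reads the libraries thus differed in which of the small forms were listed. Park7-203 has 0 bases and Park7-202 has 32 bases that no other transcript of the gene holds. Whether the animals differed in these forms was not tested. All of the forms printed below join their own first exon, in lower case, to the same second exon (chr4:150908318-150908423), in capitals, and are shown because they begin at different sites. The forms differ elsewhere too, since Park7-209 lacks 640 bases of Park7-201 and Park7-206 lacks 485.
Park7-201: gaggcgcggctgcagTCTTTAAGAAATAGA
Park7-204: agcgtggccttaaagTCTTTAAGAAATAGA
Park7-209: gacaacagtcctgatTCTTTAAGAAATAGA
Park7-206: gcgctgagactaaagTCTTTAAGAAATAGA
The first exon of Park7-204 has 118 bases that no other transcript of the gene holds, and Park7-201 has 58 such bases.

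Park7 stood above the median of the genes of oxidative and glyoxal defence. All 19 listed genes reached 1 TPM in each library, with a median of 49.7 TPM in replicate 1 and 42.7 TPM in replicate 2. The lipid peroxidase gene Gpx4 (236 ± 25.6 TPM), the superoxide dismutase gene Sod1 (185 ± 4.49 TPM) and the peroxiredoxin gene Prdx5 (159 ± 4.02 TPM) led by alignment. By reads the peroxiredoxin gene Prdx2 (350 TPM) was highest, above Gpx4 (343 TPM) and Sod1 (335 TPM), so the leaders depended on the quantification. Park7 over Pink1 was 0.613 ± 0.00931 by alignment and 0.916 ± 0.0320 by reads, so Park7 lay below Pink1 in both but by different amounts.

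Pink1 (ENSMUSG00000028756.12, chromosome 4, 138313409 to 138326307, minus strand) had 6928 counts in replicate 1 and 6331 in replicate 2. The shares of its forms moved little between the quantifications. The full-length Pink1-201 held 86.6 ± 1.31% by alignment and 87.6 ± 1.41% by reads. Pink1-202 held 13.4 ± 1.31% by alignment and 12.4 ± 1.41% by reads, and Pink1-203 was listed at 0. Pink1-202 is annotated as protein coding, with 504 coding bases against 1740 in Pink1-201. It starts 9881 bases into the gene, inside the intron before exon 6, and its 298 bases outside Pink1-201 include that stretch of intron. The sequences below show the shared start of exon 6 (chr4:138316004-138316131) in capitals. The lower-case bases are the end of exon 5 in the spliced form and the end of the kept intron, again AG, in Pink1-202.
Pink1-201, exon 5 joined to exon 6: tggagtgggactcagATGGCTGTCCCTGGC
Pink1-202, within exon 1: gccgcctctctgcagATGGCTGTCCCTGGC
The kept intron also holds the annotated microRNA gene Mir7019 (chr4:138316132-138316200), and a second microRNA gene, Gm27646, lies in exon 1 of Pink1-201. Both had 0 counts in the alignment-based gene tables.

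Genes of mitochondrial quality control around Pink1 were all measured, 22 of 22 reaching 1 TPM in each library. Their median was 42.9 TPM in replicate 1 and 43.9 TPM in replicate 2. The outer membrane channel gene Vdac1 (249.9 ± 5.17 TPM), the autophagy receptor gene Sqstm1 (224 ± 11.2 TPM) and Chchd2, itself linked to Parkinson disease (208 ± 17.9 TPM), were the highest. Pink1, at 143 ± 6.41 TPM, lay above the median of the list. Read-based Pink1 was 208 TPM in replicate 1 and 198 TPM in replicate 2.

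Lrrk2 (ENSMUSG00000036273.15, chromosome 15, 91673175 to 91816120, plus strand) is the longest of the genes, and its coding form Lrrk2-201 has 8275 bases in 51 exons. It had 3225 counts in replicate 1 and 3153 in replicate 2, which are nearly equal, while its TPM was 28.0 in replicate 1 and 23.3 in replicate 2. That gap of 1.20-fold in TPM lay in 1 short noncoding form. Lrrk2-205, with 438 bases, was at 8.45 TPM in replicate 1 and 4.37 TPM in replicate 2, from 62.4 and 31.7 counts. Without it, Lrrk2 stood at 19.6 TPM in replicate 1 and 18.9 TPM in replicate 2, which is 1.04-fold. Lrrk2-201 alone was at 16.8 TPM in replicate 1 and 17.2 TPM in replicate 2.

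The share of Lrrk2-201 was 66.9 ± 9.99% of TPM by alignment and 85.3 ± 8.83% by reads, but 94.0 ± 2.00% of the counts by alignment and 96.0 ± 0.529% by reads. Lrrk2-205 held 24.5 ± 8.04% of TPM by alignment and 6.24 ± 8.82% by reads, where it was listed at 8.28 counts in replicate 1 and 0 in replicate 2. Of its 438 bases, 405 are shared with Lrrk2-201 and 33 are its own first exon (chr15:91772345-91772377). Lrrk2-204, another noncoding form, held 3.80 ± 0.576% by alignment and 6.19 ± 0.308% by reads. Between the animals the level of the coding form was thus closer than the level of the gene by alignment. Between the quantifications it was not, since Lrrk2-201 averaged 17.0 TPM by alignment and 25.0 TPM by reads, and the gene 25.7 TPM by alignment and 29.4 TPM by reads.

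**Figure D3:**
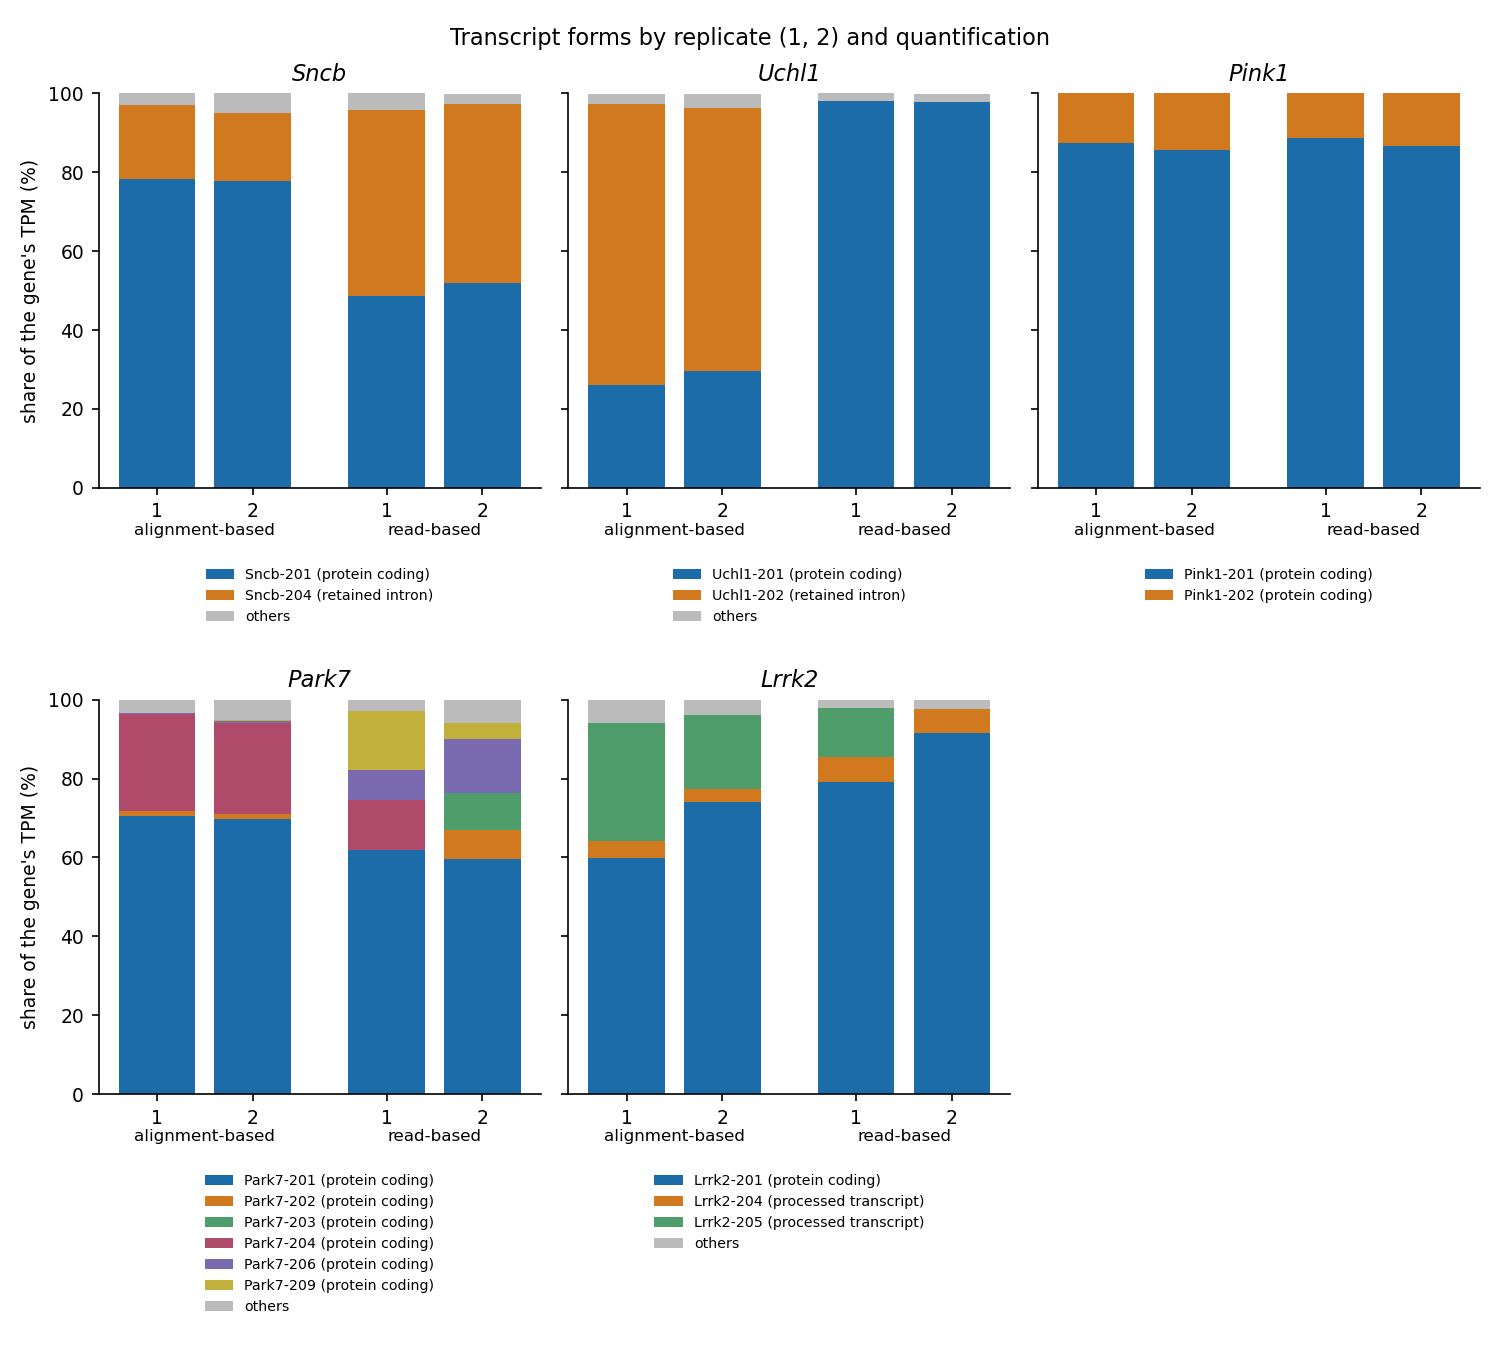
Share of each gene's TPM by transcript form, as stacked bars for replicate 1 and replicate 2 in the alignment-based (left pair) and read-based (right pair) quantification, for Sncb, Uchl1, Pink1, Park7 and Lrrk2. Uchl1 changes its leading form between the pairs, the Sncb-204 share is larger on the right, the small Park7 forms change between all bars on the right, and Pink1 looks alike in all 4 bars.

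Lrrk2 exceeded its relative Lrrk1 14.0 ± 2.80-fold by alignment and 10.9 ± 3.59-fold by reads, with Lrrk1 at 1.84 ± 0.127 TPM. Of 18 listed relatives, Rab substrates and effectors, all reached 1 TPM in each library, with a median of 45.1 TPM in replicate 1 and 45.2 TPM in replicate 2. The vesicle Rab gene Rab3a led at 386 ± 24.0 TPM, followed by the JIP scaffold genes Mapk8ip3 (171 ± 2.31 TPM) and Spag9 (127 ± 3.13 TPM). Among well-known substrates, Rab10 stood at 61.4 ± 4.19 TPM, Rab12 at 54.1 ± 2.11 TPM and Rab8a at 17.6 ± 1.21 TPM. Rab29, known for recruiting LRRK2 to membranes, was at 2.75 ± 0.792 TPM. Rab10, Rab12 and Rab29 were named after their values were seen. The kinase gene itself thus lay below the median of these genes.

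Vps35 (ENSMUSG00000031696.9, chromosome 8, 85260392 to 85299802, minus strand) had 4292 counts in replicate 1 and 4033 in replicate 2, a level of 58.3 ± 1.29 TPM. By reads it stood at 91.4 TPM on average. The first 171 bases of the gene overlap the gene Orc6 on the opposite strand, and Orc6 stood at 12.6 ± 0.926 TPM.

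Retromer is built of VPS35 with VPS29 and 1 of the VPS26 proteins, and the genes of these subunits spanned levels from 83.0 TPM for Vps29 to 22.4 TPM for Vps26a. Vps35 over Vps29 was 0.703 ± 0.0250 by alignment and 0.693 ± 0.0221 by reads. Vps35 over Vps26b was 1.29 ± 0.00272 by alignment and 1.45 ± 0.0225 by reads, and over Vps26a it was 2.61 ± 0.190 and 2.68 ± 0.133. Vps26b, the form known as enriched in brain, was thus above Vps26a, at 45.3 ± 1.10 TPM against 22.4 ± 2.13 TPM. The order Vps29, Vps35, Vps26b, Vps26a held in both libraries and both quantifications. Among all 16 retromer genes and sorting partners, which all reached 1 TPM, the sorting receptor gene Sorl1 (103 ± 3.28 TPM) and the sorting nexin gene Snx3 (92.4 ± 7.11 TPM) were higher still. Vps35 over Lrrk2 was 2.29 ± 0.250 by alignment and 3.12 ± 0.259 by reads. A further 14 Parkinson-linked genes, mostly but not all of endosomes and lysosomes, all reached 1 TPM in each library. They were led by alignment by the protease gene Ctsb (216 ± 9.13 TPM), the phosphatase gene Synj1 (153 ± 5.40 TPM) and the auxilin gene Dnajc6 (143 ± 1.94 TPM). By reads Ctsb led as well (335 TPM), and the translation factor gene Eif4g1 (221 TPM) came next.

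**Figure D4:**
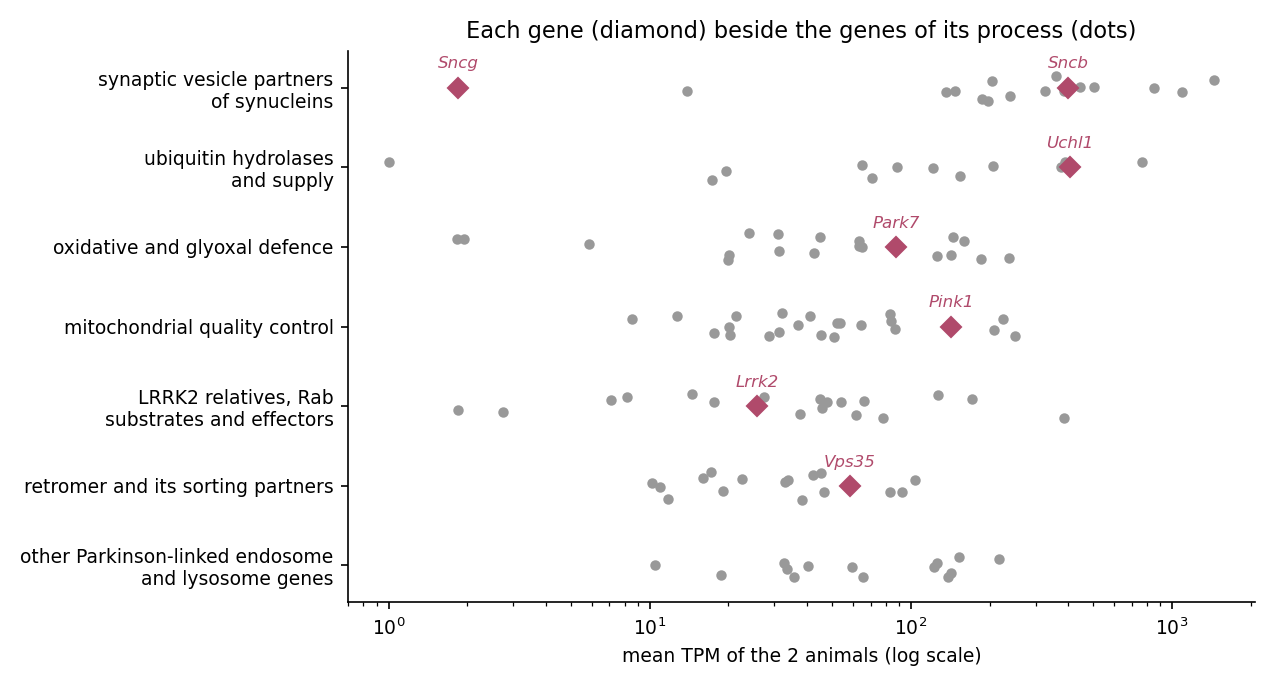
Mean TPM over the 2 animals on a log scale for each gene (diamond) and the listed genes of its process (dots, spread vertically only for legibility). Sncb, Uchl1, Park7, Pink1 and Vps35 lie above the middle of their rows, Lrrk2 lies below the middle of its row, and Sncg lies left of all dots of its row.

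The leading forms and the forms annotated as retained introns were set against other genes. Of 7703 protein-coding genes with more than 1 transcript and at least 10 TPM in both quantifications, 75.9% had the same leading transcript in both. Sncb, Park7, Pink1 and Lrrk2 kept it, and Uchl1 did not. A retained-intron form led in 2.75% of the 7703 genes by alignment and in 3.12% by reads. Retained-intron forms held 72.1 ± 2.42% of Uchl1 TPM by alignment, a share that 0.662% of those genes reached. By reads they held 2.06 ± 0.306% of it, a share that 59.8% reached. For Sncb such forms held 20.8 ± 0.261% by alignment, reached by 18.3%, and 48.1 ± 0.832% by reads, reached by 3.76%. The leader's share fell by at least as many points as that of Uchl1-202 in 135 of the genes (1.75%), Uchl1 among them.

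Genes with the most similar values were found by distance over 4 values of log2(TPM + 1), from both libraries in both quantifications. Nearest to Sncb was the small acidic protein gene Ptms (distance 0.0923), then the G protein gene Gnb1 (0.149). Nearest to Uchl1 were Snrpn (0.137) and Rab3a (0.168). For Pink1 they were the lysosomal protease gene Ctsd (0.0592) and Dnajc6 (0.0690), and for Park7 Cdk14 (0.0866) and the glutamate receptor gene Grm5 (0.0948). Vps35 was nearest to the proteasome gene Psmd8 (0.0308) and to Hnrnpa0 (0.0457), Lrrk2 to Ccnh (0.0698) and Rbm15b (0.128), and Sncg to Zfp982 (0.0575) and Adcy7 (0.0838). Such likeness is in level over 2 animals and says nothing of shared control.

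Between the animals the 7 genes were close. With counts scaled by TMM normalisation, replicate 1 over replicate 2 gave a log2 ratio of 0.13 for Park7 (95% interval 0.028 to 0.24, counting error only). It was 0.10 for Uchl1 (0.056 to 0.15), 0.099 for Pink1 (0.050 to 0.15) and 0.071 for Sncb (0.029 to 0.11). The intervals of Vps35 (0.059, -0.0033 to 0.12), Lrrk2 (0.0018, -0.069 to 0.073) and Sncg (0.15, -0.62 to 0.95) held 0. In all, 4 of 7 were apart by more than counting error, against 22.6% of the 18490 genes whose counts averaged at least 10. These 4 were higher in replicate 1 with TMM scaling, as were 11.6% of all genes. Among genes counted at least as deeply as Park7, 42.0% were apart in either direction and 25.7% were higher in replicate 1. None of the 7 was at least 2-fold apart, against 1.80% of all genes. With 1 animal against 1 there is no replicate check on any ratio and no p-value.

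**Figure D5:**
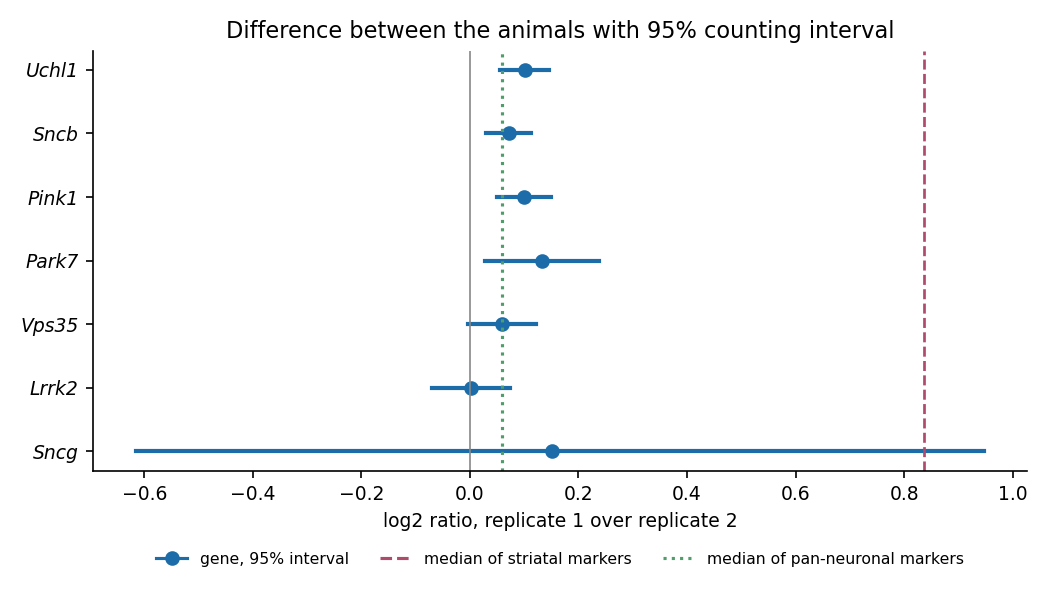
Log2 ratio of replicate 1 over replicate 2 for each gene (point) with its 95% counting interval (bar), beside the median ratio of the listed striatal markers (dashed line) and pan-neuronal markers (dotted line). With TMM scaling, as drawn, the 7 points lie between 0.0018 and 0.15, nearer the pan-neuronal median of 0.059 than the striatal median of 0.84. The interval of Sncg (-0.62 to 0.95) holds both medians.

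The median ratio of the 7 genes was 0.099, and that of all genes was -0.00026. The direction depended on the scaling, because spike-ins made 0.428% of counts in replicate 1 and 0.345% in replicate 2. Scaling by them moved the median of all genes to -0.32 and put all 7 genes below 0, from -0.32 for Lrrk2 to -0.15 for Sncg. There 6 of the 7 still lay above the median of all genes, and Lrrk2 lay at it. For the listed processes, called genes are set against 11.6% higher and 10.9% lower in replicate 1 over all genes with TMM scaling, and against 25.7% higher and 16.3% lower over those counted at least as deeply as Park7. The number higher and lower in replicate 1 by more than counting error was 8 and 2 of 15 for vesicle partners, 7 and 0 of 12 for the ubiquitin list, and 6 and 0 of 19 for oxidative defence. It was 9 and 1 of 22 for mitochondrial quality control, 5 and 1 of 18 for the Lrrk2 list, 3 and 1 of 16 for retromer and 4 and 2 of 14 for the endosome and lysosome list. The last 3 lists and oxidative defence were near the 25.7% of deeply counted genes that were higher. The medians of all the listed processes ran from 0.029 to 0.081 with TMM scaling. With spike-in scaling they ran from -0.29 to -0.24, which is 0.026 to 0.077 above the median of all genes there. No gene of the listed processes was 2-fold apart with TMM scaling.

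Outside the ubiquitin list, the most different well-counted gene of each list differed more than Park7, the most different well-counted gene of the 7. These were Hspa8 (0.16), Gpx1 (0.25), Tomm70a (0.18), Rab8a (0.21), Washc3 (0.21) and Pla2g6 (0.23), all higher in replicate 1 with TMM scaling but below 0 with spike-in scaling, and the interval of Washc3 held 0.

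Some markers of other tissue and cell types moved between the same libraries. Their counts stand against the same shares over all genes (11.6% higher and 10.9% lower in replicate 1). Over genes counted at least as deeply as Park7 the shares were 25.7% higher and 16.3% lower. All 10 striatal markers were higher in replicate 1 with both scalings, with sums of 407 TPM in replicate 1 and 241 TPM in replicate 2, and 4 of them at least 2-fold. All 6 oligodendrocyte markers were higher in replicate 1, with sums of 783 TPM in replicate 1 and 638 TPM in replicate 2, and a median ratio of 0.27 that became -0.046 with spike-in scaling, or 0.27 above all genes. Pan-neuronal markers were higher in replicate 1 by more than counting error for 5 of 8 and lower for 0, with sums of 3273 TPM in replicate 1 and 3183 TPM in replicate 2, and a median of 0.059 that became -0.26 with spike-in scaling. Red blood cell markers were higher for 4 of 5 and lower for 0, with sums of 463 TPM in replicate 1 and 379 TPM in replicate 2, and a median of 0.25 that became -0.065 with spike-in scaling. Inhibitory neuron markers were higher for 4 of 6 and lower for 0, with sums of 553 TPM in replicate 1 and 512 TPM in replicate 2, and a median of 0.11 that became -0.20. With TMM scaling astrocyte markers were higher for 3 of 6 and lower for 0, and endothelial markers higher for 1 of 5 and lower for 0. Cortical excitatory neuron markers were higher for 1 of 6 and lower for 1, and 0 of 6 microglial markers were apart by more than counting error. The medians of these last lists were below 0 with spike-in scaling. Choroid plexus markers summed to 11.0 TPM in replicate 1 and 93.2 TPM in replicate 2, a difference carried almost wholly by Ttr (8.58 TPM in replicate 1, 89.2 TPM in replicate 2). Of the 3 choroid plexus markers averaging at least 10 counts, 2 were lower in replicate 1 by more than counting error and 0 higher. The lower 2 were Ttr and Kl, with Kl at 1.80 and 2.18 TPM (log2 ratio -0.28, -0.57 to -0.0059, TMM scaling). The interval of Clic6 (0.59 and 0.75 TPM) held 0. Below that minimum, Folr1 (0 against 11 counts) and Kcne2 (1 against 9) were also lower in replicate 1 by more than counting error. The part of these shifts in the ratios of the 7 genes was not tested.

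The promoters of the synuclein pair are shown because these are the 2 genes of 1 family and lay far apart in level. RefSeq sequences for build GRCm38.p6, from 250 bases before to 50 after the start annotated there, matched 6 of the 7 genes. For Sncb that start is also the gene start in the annotation of the deposited tables. For Sncg it lies inside exon 1 of that annotation (chr14:34374460-34374789), so the 2 windows are not placed alike on it. Capitals mark matches, on either strand, to the GC box GGGCGG and the CCAAT box CCAAT, and no motif match overlaps another.
Sncb, chr13:54766546-54766845, minus strand: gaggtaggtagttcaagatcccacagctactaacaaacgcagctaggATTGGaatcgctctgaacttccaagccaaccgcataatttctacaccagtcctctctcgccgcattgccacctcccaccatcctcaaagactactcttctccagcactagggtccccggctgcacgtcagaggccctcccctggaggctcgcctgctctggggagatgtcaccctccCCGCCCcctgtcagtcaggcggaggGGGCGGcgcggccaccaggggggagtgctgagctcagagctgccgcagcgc
Sncg, chr14:34374620-34374919, minus strand: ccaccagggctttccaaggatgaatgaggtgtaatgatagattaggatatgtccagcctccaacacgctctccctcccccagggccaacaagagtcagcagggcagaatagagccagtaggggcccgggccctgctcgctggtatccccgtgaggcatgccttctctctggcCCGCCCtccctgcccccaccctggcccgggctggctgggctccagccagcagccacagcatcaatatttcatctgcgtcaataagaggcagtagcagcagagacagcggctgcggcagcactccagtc
The Sncb window holds 15 CpG dinucleotides, 2 GC boxes and 1 CCAAT box, and the Sncg window 9 CpG dinucleotides and 1 GC box. Neither holds TATAAA. Over 32851 promoters of the same length the median was 7 CpG dinucleotides. A GC box was in 35.7% of them, a CCAAT box in 37.4% and TATAAA in 13.6%. Among the other genes, CpG counts were 28 for Lrrk2, 22 for Park7, 18 for Pink1 and 9 for Uchl1, so the counts did not follow the order of the levels. These matches describe letters in a window and are no evidence of binding.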

How the data were processed

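Each of the 2 libraries came with 3 tables, and no replicates were pooled, per the file headers. The authors deposited expected counts and TPM per gene and per transcript from an alignment to the transcriptome (build mm10, GENCODE M21), with the percent of the gene's TPM held by each transcript. A further deposited table holds estimated counts and TPM made from 1 file of reads with the same annotation. The programs, the use of strand and whether that file holds all reads are not given in the sources that were used. TPM sums to 1000000 over all rows, spike-ins included. Reads of the CAST/EiJ copies were quantified on a C57BL/6J reference, with an effect that was not measured.

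Rows naming no gene (1.78e-05% and 2.48e-05% of counts in replicates 1 and 2) and spike-ins did not enter library sizes. For the ratio of replicate 1 over replicate 2, expected counts were rounded, genes whose counts averaged at least 10 were kept, and TMM-scaled CPM with a prior count of 2 were used (edgeR 4.0.16, R 4.3.3). The intervals are exact conditional binomial ones (Clopper-Pearson, 95%), which cover counting error only, as do the Poisson intervals and the floor of 3 counts. Structures come from the GENCODE M21 annotation, and words of 31 bases from its transcripts. Named genes were the 7 with every form of at least 5% of TPM, the 3 highest genes and the most different gene (mean count of at least 100) of each list, the 2 nearest in value, and overlapping genes, of which some genes and transcript forms are not reported here. Members, lists and naming rule were chosen with earlier results of these data known. Alternatives were scaling by spike-ins or by size factors (DESeq2 1.42.0), log2 TPM after adding 1 or 0.1, other count minimums, a prior count of 0.5, posterior mean TPM, TPM over protein-coding genes, the read-based tables, shares of counts and leaving out each animal.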

Additional observations from a re-analysis of the deposited data

How the results depend on the processing

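Levels and shares moved with the choice of table. The mean TPM by alignment, by reads and over protein-coding genes alone was 407, 623 and 834 for Uchl1, 400.0, 870.1 and 820.4 for Sncb, 143, 203 and 292 for Pink1, 87.5, 186 and 179 for Park7, 58.3, 91.4 and 120 for Vps35, 25.7, 29.4 and 52.6 for Lrrk2, and 1.85, 3.50 and 3.78 for Sncg. Posterior mean TPM moved no level by more than its SD. Read-based ratios of levels beyond the SD were 249 for Sncb over Sncg, 0.916 for Park7 over Pink1, 3.12 for Vps35 over Lrrk2, 0.716 for Uchl1 over Sncb, 10.9 for Lrrk2 over Lrrk1, 24.5 for Uchl1 over Uchl3 and 1.45 for Vps35 over Vps26b.

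The share of the leading form moved by reads to 50.3% for Sncb-201, 60.7% for Park7-201, 85.3% for Lrrk2-201 and 0 for Uchl1-202. As a share of counts it was 91.2% for Sncb-201, 72.3% for Park7-201, 91.5% for Pink1-201 and 94.0% for Lrrk2-201.

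Spike-in scaling turned the log2 ratio between the animals to -0.25 for Sncb, -0.19 for Park7 and -0.22 for Pink1 and Uchl1, and gave -0.32 for Lrrk2 and -0.26 for Vps35. With TPM the Lrrk2 ratio was 0.26 at a pseudocount of 1 and 0.27 at 0.1. DESeq2 size factors and a prior count of 0.5 kept all 7 ratios within their intervals. By reads they stayed within them too, but the interval of Vps35 no longer held 0 (0.098, 0.038 to 0.16). Genes at least 2-fold apart numbered 333 (127 higher and 206 lower in replicate 1), against 633 with spike-in scaling (70 and 563), 80 with TPM and a pseudocount of 1 (42 and 38), 1958 with no count minimum (625 and 1333) and 29 at a minimum mean count of 100 (17 and 12). Genes apart by more than counting error numbered 4174, and 12323 with spike-in scaling. The causes were not tested.

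Leaving out an animal moved no level, share or ratio of levels by more than its SD, as it must with 2 libraries. No paired analysis was possible because both libraries belong to 1 group. Depth limited Sncg most, at 28 to 32 counts.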
